A study of Mus musculus with 7 samples.

Results

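A set of 10 genes of cyclic AMP (cAMP) signalling were examined in mouse dorsal root ganglia after nerve injury: the adenylyl cyclases Adcy1, Adcy3 and Adcy8, the protein kinase A (PKA) subunits Prkaca, Prkacb and Prkar2b, the transcription factors Creb1 and Crem, and the phosphodiesterases Pde4b and Pde4d. They were chosen by gene symbol, as 10 of 54309 genes in a table of transcript abundance, and each symbol matched 1 row. Of the 10 genes, 3 were higher at Zeitgeber time 20 (ZT20, hours counted from lights on) than at ZT8, namely Creb1, Prkaca and Prkacb. Crem was lower at ZT20, and 6 genes did not pass the test. Of all 14800 genes tested, 16.4% passed, 12.8% higher and 3.61% lower at ZT20.

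As background, adenylyl cyclases make cAMP when a receptor activates a stimulatory G protein. cAMP releases the catalytic subunits of PKA from their regulatory subunits, and the free kinase phosphorylates CREB, which then switches on genes with cAMP response elements (CREs) in their promoters. Phosphodiesterases split cAMP and end the signal. In sensory neurons this pathway sensitises nociceptors, and raised cAMP is known to promote axon growth.

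The 7 samples came from C57bl/6 mice of 6 to 8 weeks, labelled male, whose sciatic nerve had been injured at ZT20 (4 samples) or at ZT8 (3 samples). The lumbar ganglia (L4-6) were taken 72 h later and thus at the same ZT, so the time of injury and the time of dissection cannot be told apart. No uninjured group was analysed here, so the values show no effect of injury. The tissue was digested, and an albumin gradient enriched the suspension for neurons. A NEBNext kit for low input was used on total RNA. Library names follow one scheme at ZT20 and another at ZT8, so a batch along that line cannot be told apart from the groups. The labels do not say whether each sample was 1 animal or a pool, so the p-values measure the spread between these samples. Values are TPM, a relative abundance of transcripts, which correct for transcript length and sum to the same total in every sample. Means are given ± SD over the 4 ZT20 or the 3 ZT8 samples. Because TPM keeps no read depth, the counting error of each value is unknown.

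Neuron transcripts were abundant in all samples: 16 sensory neuron markers (Tubb3, Prph, Nefl and others) summed to 20795 to 25457 TPM at ZT20 and 15729 to 23038 TPM at ZT8. Satellite glia markers (10 genes) summed to 7760 to 9492 TPM at ZT20 and 12948 to 15786 TPM at ZT8, with no overlap. Most of this sum was Apoe alone, at 6261 to 7615 TPM at ZT20 and 10623 to 13557 TPM at ZT8. The difference, ZT20 minus ZT8, was negative for 6 of the 10 markers and positive for 4, of which Cadm2 did not overlap. In the test used below, 5 of 16 neuron markers were higher at ZT20 and 0 lower, and 3 of 10 satellite glia markers were lower and 0 higher. Of all tested genes, 12.8% were higher and 3.61% lower. The other 11 neuron markers did not pass, Tubb3, Prph and Nefl among them. After the length and GC correction described below, 3 of the 16 neuron markers and 2 of the 10 satellite glia markers passed. Myelinating Schwann cell, macrophage, fibroblast and endothelial sums overlapped between the groups. Plasma cell marker sums, from 267 to 485 TPM at ZT20 and 496 to 933 TPM at ZT8, did not. The part of these cell types in the results was not tested. A marker score fitted below as a covariate followed the groups, so it cannot tell cell types and groups apart. In bulk samples, fewer cells of a type and less RNA per cell cannot be told apart.

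Some libraries stood apart. ZT8 replicate 2 had 18297 genes above 0 TPM, against 22541 to 25238 in the other samples. All samples were labelled male, yet the summed level of 4 Y-linked genes (Uty, Kdm5d, Eif2s3y and Ddx3y) was 0.0162 and 0.00868 TPM in ZT20 replicates 3 and 4, against 33.1 to 84.6 TPM elsewhere. Xist, the RNA that silences the second X chromosome of females, reached 1.08, 2.21 and 2.30 TPM in ZT20 replicates 2, 3 and 4 and no more than 0.00467 TPM in the other samples. Results are therefore also given without these libraries.

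Differences between the groups are ZT20 minus ZT8 on the log2(TPM + 1) scale, which makes differences of low genes look smaller than they are. They were tested with limma over the 14800 genes that averaged 1 TPM or more, and p-values were adjusted over all of these by the Benjamini-Hochberg method. All 10 genes entered the test. Genes passed at an adjusted p under 0.05. Of the 10 genes 4 passed, against 16.4% of all tested genes. Samples of ZT20 and ZT8 were fully apart in 7 of the 10 genes, 6 higher and 1 lower at ZT20, against 33.2% of all tested genes (24.5% higher and 8.72% lower). The median log2 difference was 0.59 over the 10 genes and 0.23 over all tested genes. Longer transcripts had larger differences (Spearman's rho 0.410 across all tested genes, which are not independent replicates), and the longest annotated transcript had a median length of 4325.5 nt in the 10 genes and 3108 nt in all tested genes. Results are therefore also given after a correction of each sample for its trend with length and GC content, and under median-ratio scaling, which sets the median ratio between samples equal. After the length and GC correction the median was 0.25 over the 10 genes and 0.24 over all tested genes.

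**Figure D1:**
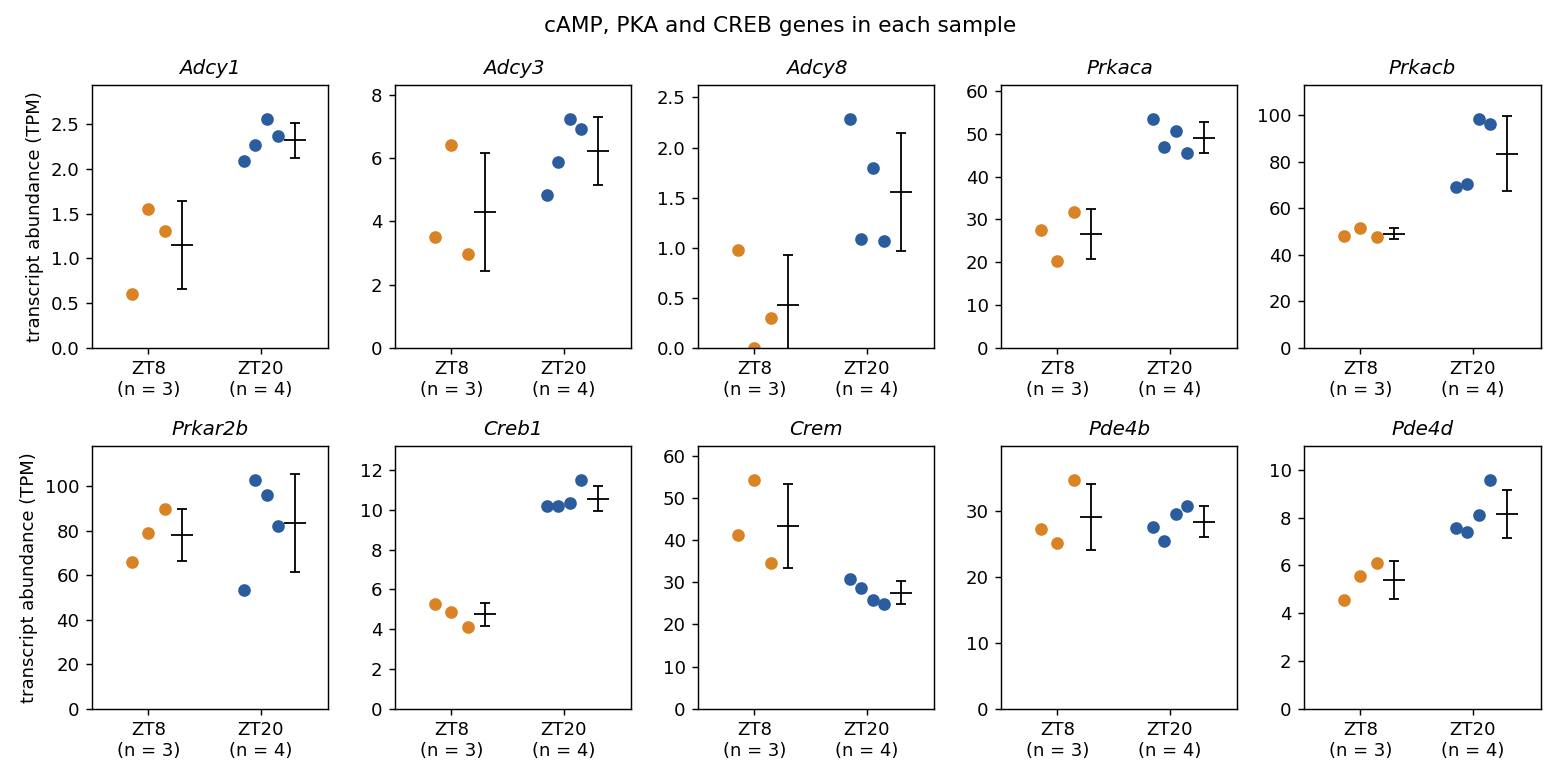
Transcript abundance (TPM, linear axis from 0) of the 10 genes in each sample, with a dot per sample and, to its right, the group mean with its SD (ZT8, n = 3, and ZT20, n = 4). The lower arm of the Adcy8 bar at ZT8 ends at the axis. Creb1, Prkaca and Prkacb lie higher at ZT20 without overlap, Crem lies lower, and Pde4b and Prkar2b overlap.

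Promoters were read from RefSeq entries on GRCm38.p6, a build other than the GRCm39 named for the table, and matched by symbol, each entry running from 250 bases before to 50 after a gene's start. They matched 8 of the 10 genes (not Adcy8 and Crem) with 16 entries. The full CRE, TGACGTCA, which reads the same on both strands, was in 0 of the 16 and in 1.79% of all 32851 promoters. Its core TGACG, searched on both strands and contained in the full CRE, was in 3 of the 16 entries (Prkaca, Prkacb and Pde4b) and in 20.8% of all promoters. The 250 bases before the start are shown for Prkaca (chr8:83972728-83972977 on the plus strand), Prkacb (chr3:146812947-146813196 on the minus strand) and Creb1 (chr1:64532554-64532803 on the plus strand), the 3 genes that were higher at ZT20. Capitals mark the core, here on the opposite strand as CGTCA, which the Creb1 window does not hold. For Prkaca and Prkacb the entry shown was picked because it holds the core. Their other entries lack it (chr8:83976633-83976932 for Prkaca, chr3:146781367-146781666 and chr3:146770189-146770488 for Prkacb).
Prkaca: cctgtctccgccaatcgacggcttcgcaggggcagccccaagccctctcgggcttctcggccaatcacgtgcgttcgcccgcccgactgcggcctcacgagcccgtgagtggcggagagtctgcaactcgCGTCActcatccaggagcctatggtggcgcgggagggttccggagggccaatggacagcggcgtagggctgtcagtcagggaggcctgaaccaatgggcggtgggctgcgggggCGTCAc
Prkacb: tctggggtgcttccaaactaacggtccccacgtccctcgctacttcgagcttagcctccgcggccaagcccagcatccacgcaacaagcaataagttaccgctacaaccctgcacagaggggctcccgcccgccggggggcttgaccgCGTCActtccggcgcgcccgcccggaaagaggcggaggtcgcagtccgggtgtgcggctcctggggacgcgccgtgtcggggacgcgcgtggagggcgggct
Creb1: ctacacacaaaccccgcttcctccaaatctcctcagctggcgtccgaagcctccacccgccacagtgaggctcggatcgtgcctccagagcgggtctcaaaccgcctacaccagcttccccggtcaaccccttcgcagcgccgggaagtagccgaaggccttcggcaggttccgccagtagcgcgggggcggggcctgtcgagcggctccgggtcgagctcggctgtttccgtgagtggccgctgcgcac

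The 3 cyclases were low and did not pass. Adcy1 (ENSMUSG00000020431) and Adcy8 (ENSMUSG00000022376) are the forms stimulated by calcium and calmodulin, and Adcy3 (ENSMUSG00000020654) is best known from olfactory neurons and primary cilia. Adcy1 was at 2.09, 2.27, 2.56 and 2.36 TPM at ZT20 and at 0.606, 1.55 and 1.30 TPM at ZT8. The groups did not overlap, but the log2 difference of 0.65 missed the threshold (95% interval 0.066 to 1.23, limma adjusted p = 0.112). Adcy1 has the longest transcript of the 10 genes, 12259 nt, and the length and GC correction left 0.082. With each sample also centred, the sign turned to −0.16.

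Adcy8 was at 2.28, 1.09, 1.80 and 1.06 TPM at ZT20, and at ZT8 it was at 0.975 TPM, listed at 0, and at 0.297 TPM. Its groups lay just apart, and the log2 difference of 0.87 did not pass (95% interval 0.11 to 1.63, limma adjusted p = 0.103). Adcy3 was at 4.85, 5.88, 7.24 and 6.91 TPM at ZT20 and at 3.49, 6.43 and 2.97 TPM at ZT8. ZT8 replicate 2 lay within the ZT20 range, and the log2 difference of 0.49 did not pass (95% interval −0.13 to 1.11, limma adjusted p = 0.232). Without ZT8 replicate 2 the differences of Adcy1 and Adcy3 were 0.79 and 0.76, and both passed (limma adjusted p = 0.0450 and 0.0372). The length and GC correction left 0.12 for Adcy3 and 0.46 for Adcy8, and quantile normalization 0.15 and 0.46, with none passing (limma adjusted p from 0.323 to 0.814). The gene Cenpo overlaps Adcy3 on the other strand.

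Among all 10 cyclases, 7 were tested, and 1 passed (14.3%, close to the 16.4% of all tested genes). It was Adcy5, a form inhibited by Gi proteins, which was at 4.96 ± 0.644 TPM at ZT20 against 2.41 ± 0.744 TPM at ZT8, with a log2 difference of 0.82 (limma adjusted p = 0.0492). After the length and GC correction the adjusted p of Adcy5 was 0.399, and with 1 sample left out at a time it passed only without ZT8 replicate 2. Adcy7 and Adcy9 differed by 0.73 and 0.77 without overlap and without passing (limma adjusted p = 0.0946 and 0.109), and Adcy2 differed by −0.17 with overlap. Without ZT8 replicate 2 the difference of Adcy9 was 0.41. Adcy4, Adcy6 and Adcy10 were under the limit of the test, with no sample above 1.65 TPM. All cyclases together summed to 29.1 to 34.8 TPM at ZT20 and 17.7 to 22.2 TPM at ZT8. Adcy1, Adcy3 and Adcy8 made up 30.2% to 33.3% of that sum at ZT20 and 24.9% to 36.1% at ZT8.

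PKA is a tetramer of catalytic and regulatory subunits. Both widely expressed catalytic subunits were higher at ZT20. Prkaca (ENSMUSG00000005469) was at 53.4, 46.9, 50.8 and 45.5 TPM at ZT20 and at 27.6, 20.3 and 31.8 TPM at ZT8. Its groups were well apart, with means of 49.2 ± 3.62 TPM at ZT20 against 26.6 ± 5.82 TPM at ZT8. The log2 difference of Prkaca was 0.88 (standard error 0.17, limma adjusted p = 0.0137). Corrected for length and GC content, Prkaca differed by 1.00 (limma adjusted p = 0.00724), and its transcript of 2276 nt is shorter than the median. Of the fits that left out 1 sample, only that without ZT20 replicate 3 did not pass (0.87, limma adjusted p = 0.0550).

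Prkacb (ENSMUSG00000005034) was at 68.99, 70.4, 98.3 and 96.4 TPM at ZT20 and at 47.95, 51.7 and 47.7 TPM at ZT8. Within ZT20, replicates 3 and 4 lay well above replicates 1 and 2, and these are the samples almost without Y-linked transcripts. The means were 83.5 ± 15.98 TPM at ZT20 against 49.1 ± 2.24 TPM at ZT8, and the log2 difference was 0.73 (standard error 0.16, limma adjusted p = 0.0213). It was 0.50 under median-ratio scaling, just short of the threshold (limma adjusted p = 0.0539), and 0.65 to 0.82 when 1 sample was left out at a time, with 4 of 7 such fits passing. Those without ZT20 replicate 3, ZT20 replicate 4 or ZT8 replicate 3 did not pass (limma adjusted p = 0.0723, 0.0692 and 0.0549). Without ZT20 replicates 3 and 4 it was 0.50. The gene model Gm19104 overlaps Prkacb on the other strand.

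Of the 4 regulatory subunits, Prkar1a and Prkar2a were higher at ZT20. Prkar2b (ENSMUSG00000002997), the type II beta subunit that is prominent in neurons, was at 53.2, 103, 95.8 and 82.1 TPM at ZT20 and at 65.9, 78.7 and 89.6 TPM at ZT8. ZT20 replicate 1 held the lowest value of all samples and ZT20 replicate 2 the highest, so the groups overlapped. The log2 difference was 0.064 (95% interval −0.46 to 0.59, limma adjusted p = 0.863), and its sign turned to −0.17 under median-ratio scaling. Its paralog Prkar2a, the type II alpha subunit, was at 58.4 ± 9.66 TPM at ZT20 against 25.0 ± 8.25 TPM at ZT8, without overlap. The log2 difference of Prkar2a was 1.22 (standard error 0.22, limma adjusted p = 0.0114). Prkar1a, the most abundant PKA subunit here, was at 888 ± 98.3 TPM at ZT20 against 641 ± 57.6 TPM at ZT8 and passed with 0.47 (limma adjusted p = 0.0354), but not under median-ratio scaling (adjusted p = 0.179). It passed in 2 of 7 fits with 1 sample left out, those without ZT20 replicate 2 and without ZT8 replicate 1. Prkar1b, whose samples overlapped, differed by 0.44 (limma adjusted p = 0.158), and by 0.19 without ZT8 replicate 2.

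Summed over both genes, the catalytic transcripts were at 117 to 149 TPM at ZT20 and 72.0 to 79.6 TPM at ZT8. The 4 regulatory transcripts summed to 1286 to 1534 TPM and 910 to 1142 TPM. The ratio of regulatory to catalytic sums was 10.6, 10.96, 10.3 and 10.8 in the ZT20 replicates and 15.1, 12.6 and 13.1 in the ZT8 replicates. Regulatory transcripts thus outnumbered catalytic ones in each sample, and the ratio was lower at ZT20. The ratio of Prkar2a to Prkar2b was 0.618 to 0.887 at ZT20 and 0.244 to 0.385 at ZT8. By contrast, the ratio of Prkacb to Prkaca overlapped between the groups, at 1.29 to 2.12 and 1.499 to 2.54.

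Creb1 and Crem, both CRE-binding factors of the same family, differed in opposite directions. Creb1 (ENSMUSG00000025958) encodes CREB, the activator that PKA phosphorylates. Its level was 10.2, 10.2, 10.4 and 11.5 TPM in ZT20 replicates 1 to 4 and 5.27, 4.85 and 4.12 TPM in ZT8 replicates 1 to 3. Every ZT20 sample was thus above every ZT8 sample, and the values within each group lay close together. The means were 10.6 ± 0.629 TPM at ZT20 against 4.75 ± 0.581 TPM at ZT8, a ratio of 2.23. The log2 difference was 1.01 (standard error 0.18, limma adjusted p = 0.0100), with the lowest adjusted p of the 10 genes. Creb1 has a long transcript, 8364 nt, and the length and GC correction left a difference of 0.68 (limma adjusted p = 0.0423). With each sample also centred, the difference was 0.44 and did not pass (limma adjusted p = 0.127).

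Crem (ENSMUSG00000063889) encodes activators and, from an internal promoter, the short inducible repressor ICER that dampens CRE-driven transcription. It was at 30.7, 28.7, 25.8 and 24.8 TPM at ZT20 and at 41.4, 54.3 and 34.6 TPM at ZT8. All ZT20 values lay below all ZT8 values, and ZT8 replicate 2 was the highest. With means of 27.5 ± 2.71 TPM at ZT20 against 43.4 ± 10.03 TPM at ZT8, the log2 difference was −0.62 (standard error 0.18, limma adjusted p = 0.0459). This call is close to the threshold: leaving out 1 sample at a time gave −0.77 to −0.45 with adjusted p-values of 0.0371 to 0.126, and only the fit without ZT8 replicate 3 passed. Under median-ratio scaling the difference was −0.85 (limma adjusted p = 0.0286), and corrected for length and GC content it was −0.50 and did not pass (limma adjusted p = 0.0868). Gene-level TPM do not separate ICER from the longer Crem transcripts, and the gene model Gm6225 overlaps Crem on the other strand.

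The third CRE-binding factor of the family, Atf1, was at 4.20 ± 0.718 TPM at ZT20 against 2.72 ± 1.01 TPM at ZT8 with overlapping samples and did not pass (log2 difference 0.51, limma adjusted p = 0.205). Of the 3 factors, Crem was the most abundant per length in each sample. The ratio of Crem to Creb1 was 3.01, 2.81, 2.49 and 2.15 in the ZT20 replicates and 7.85, 11.2 and 8.40 in the ZT8 replicates. A ratio within a sample does not depend on scaling between samples, and this one did not overlap between the groups. Because Creb1 and Crem were each fully apart in opposite directions, their ratio had to be apart too. It can still carry the trend with transcript length, as Creb1 has 8364 nt and Crem 2931 nt. With the length and GC correction their differences went from 1.01 to 0.68 and from −0.62 to −0.50. The ratio shows unequal levels of these transcripts, not which of them differed, and it is given as a description without a test.

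**Figure D2:**
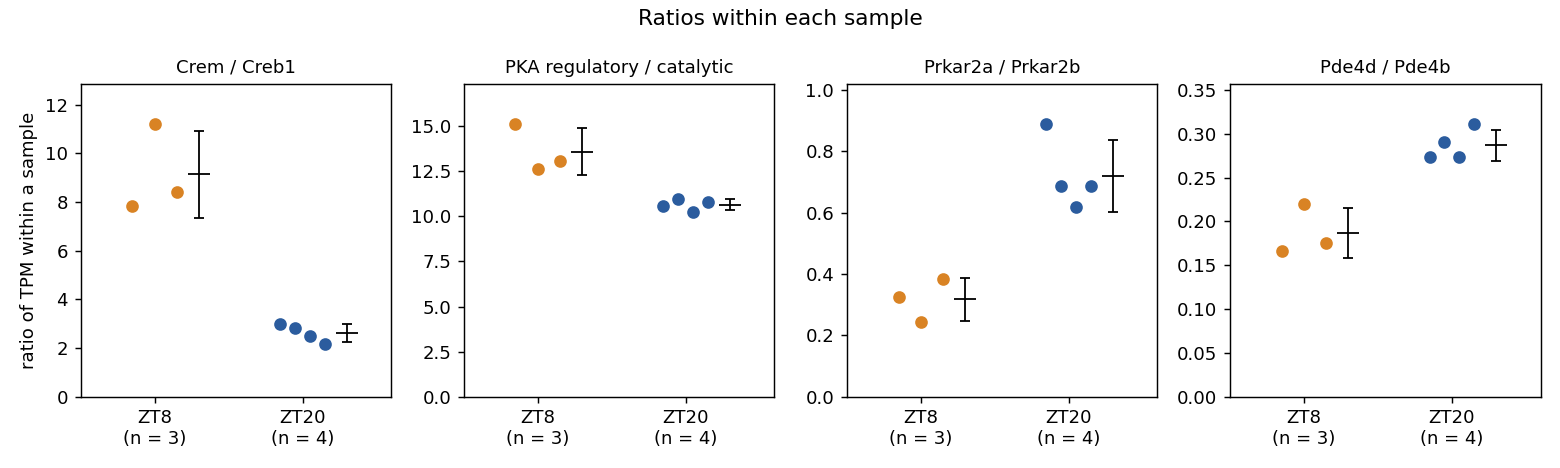
Ratios of TPM within each sample, with a dot per sample and the group mean and SD beside them (ZT8, n = 3, and ZT20, n = 4). Crem over Creb1 is 2.15 to 3.01 at ZT20 and 7.85 to 11.2 at ZT8, and the other ratios shown also do not overlap between the groups. Ratios and shares that overlap are not shown, among them Prkacb over Prkaca, at 1.29 to 2.12 at ZT20 and 1.499 to 2.54 at ZT8.

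Both phosphodiesterases of the PDE4 family, the cAMP-specific enzymes blocked by rolipram, fell short of the threshold. Pde4d (ENSMUSG00000021699) was at 7.56, 7.38, 8.10 and 9.58 TPM at ZT20 and at 4.54, 5.53 and 6.08 TPM at ZT8. The groups did not overlap, and the log2 difference was 0.52 (95% interval 0.082 to 0.96, limma adjusted p = 0.0952). It was 0.32 under median-ratio scaling and 0.18 under quantile normalization (limma adjusted p = 0.281 and 0.554). Several small genes lie within Pde4d, among them Rps3a3 on the same strand, so the assignment of reads to it is uncertain. Pde4b (ENSMUSG00000028525) was at 27.6, 25.4, 29.6 and 30.8 TPM at ZT20 and at 27.3, 25.2 and 34.7 TPM at ZT8. The lowest and the highest value of Pde4b both belonged to ZT8, and the log2 difference was −0.025 (95% interval −0.38 to 0.33, limma adjusted p = 0.923).

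Pde4b was the most abundant PDE4 gene in every sample, with 62.1% to 68.2% of the summed PDE4 TPM at ZT20 and 70.2% to 75.7% at ZT8. The ratio of Pde4d to Pde4b was 0.273 to 0.311 at ZT20 and 0.166 to 0.220 at ZT8, without overlap. Pde4a and Pde4c differed by 0.98 and 0.39 with wide spread (limma adjusted p = 0.310 and 0.517). Pde4a was listed at 0 in ZT8 replicate 2, and without that sample its difference was 0.070. Pde4c passed without it (0.89, limma adjusted p = 0.0422).

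**Figure D3:**
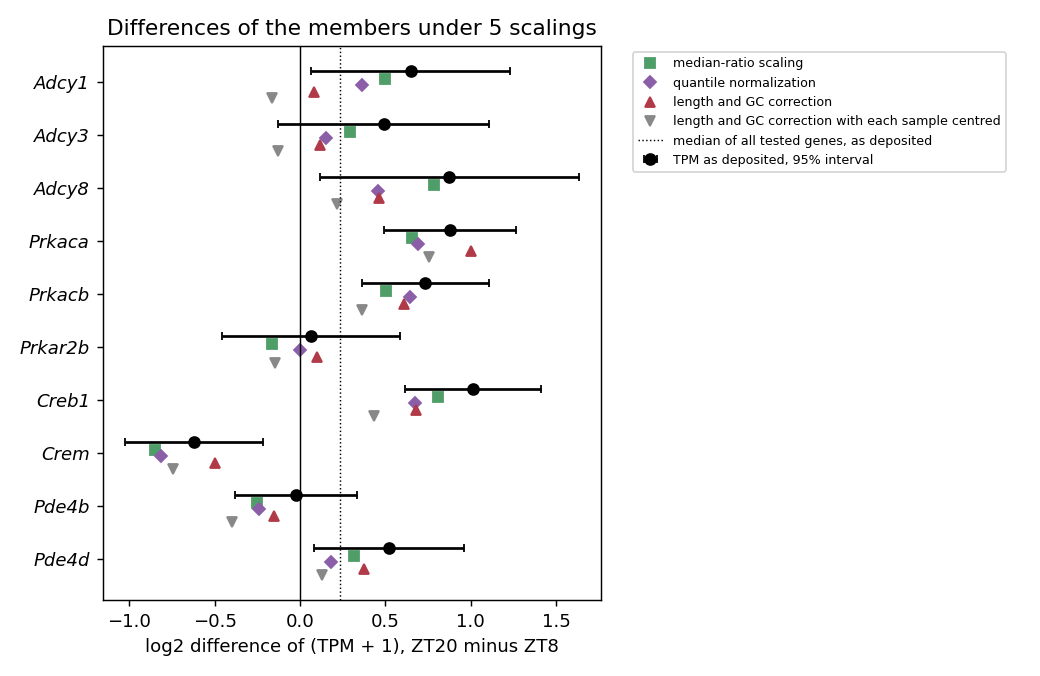
Log2 difference (ZT20 minus ZT8) of each of the 10 genes with its 95% interval from limma on TPM as deposited (circles) and under 4 other scalings (other symbols), with a dotted line at the median of all tested genes. Creb1, Prkaca and Prkacb are above 0 and Crem below 0 under each scaling shown, while Adcy1, Adcy3 and Prkar2b change sign.

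The profile of each gene over the 7 samples, as log2(TPM + 1) centred on its mean, was compared with that of every tested gene. The nearest profile to Creb1 was that of Purg (root mean square distance 0.073 on the log2 scale) and the nearest to Crem that of Grpel1 (0.040). Prkaca was nearest to Prpf4b (0.068) and Prkacb to Ankrd6 (0.066). The cyclases Adcy1, Adcy3 and Adcy8 were nearest to Nectin3 (0.053), Adgrl3 (0.060) and Rab27a (0.099). Prkar2b was nearest to Pcgf6 (0.092), Pde4b to Prxl2a (0.032) and Pde4d to Sec24d (0.078). These are descriptions over 7 samples.

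The rest of the pathway was read out in lists by role, 129 genes in all with the 10 above, of which 98 were tested. In this union 22 were higher and 3 lower at ZT20, and the median log2 difference was 0.36 against 0.23 for all tested genes, of which 12.8% were higher and 3.61% lower. Under median-ratio scaling 15 of the union were higher and 6 lower, with a median of 0.15 against 0.033 for all tested genes. After the length and GC correction the median of the union was 0.26 against 0.24 for all tested genes. Without the 10 genes the counts were 19 higher and 2 lower of 88, a share of 23.9% past the threshold against 16.4% of all tested genes. They were 13 higher and 5 lower under median-ratio scaling, by which 1128 of all 14800 genes were higher and 1160 lower (15.5%). Upstream of the cyclases, the receptors that raise cAMP had 1 of 13 tested genes higher and 0 lower, with a median of 0.012. It was Ptgir, the prostacyclin receptor, at 68.5 ± 15.5 TPM at ZT20 against 36.0 ± 2.26 TPM at ZT8, a log2 difference of 0.88 (limma adjusted p = 0.0181). Of 7 G protein alpha subunits, 2 were higher and 0 lower: Gnas, the stimulatory subunit (773 ± 83.4 TPM at ZT20 against 449 ± 98.5 TPM at ZT8), with a log2 difference of 0.80 (limma adjusted p = 0.0153), and Gnao1, the neuronal Go subunit, with 0.85 (limma adjusted p = 0.0171). Gnas just missed the threshold with median-ratio scaling and with the length and GC correction (limma adjusted p = 0.0572 and 0.0501), and it lies in a locus with overlapping genes on both strands. The list of Gnas and its relatives had a median of 0.67.

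A-kinase anchoring proteins, which tether PKA to membranes and organelles, had 4 of 9 tested genes higher and 0 lower, with a median of 0.94 (all tested genes: 12.8% higher, 3.61% lower, median 0.23). Their median length was 6195 nt, and after the length and GC correction their median difference was 0.56. Akap6, which anchors PKA at the nuclear envelope, was at 62.7 ± 12.3 TPM at ZT20 against 23.4 ± 1.92 TPM at ZT8, a log2 difference of 1.37 (limma adjusted p = 0.00351). Akap10, a mitochondrial anchor, differed by 1.37 as well (limma adjusted p = 0.00689). Akap11 and Akap12 passed with 1.04 and 0.94. The transcript of Akap6 is 14847 nt long, and all 4 also passed after the length and GC correction and under median-ratio scaling. With that correction Akap9 also passed, in the other direction (−0.50, limma adjusted p = 0.0261), from −0.011 without it. The list of 9 PKA subunits and inhibitor peptides had 4 genes higher and 0 lower, 2 of them higher under median-ratio scaling, and the inhibitors Pkia, Pkib and Pkig differed by 0.36, 0.036 and −0.33 without passing.

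Of 4 tested cAMP sensors other than PKA, 1 was higher, against 12.8% of all tested genes. It was Rapgef4 (Epac2), an exchange factor for Rap that cAMP activates directly. Rapgef4 was at 90.3 ± 13.8 TPM at ZT20 against 45.5 ± 16.2 TPM at ZT8, with a log2 difference of 1.02 (limma adjusted p = 0.0264). It has annotated antisense genes, and the strand setting of the authors' counting is not stated. Of 14 tested phosphodiesterases, 3 were higher and 0 lower (21.4%, against 16.4% of all tested genes past the threshold). Under median-ratio scaling 1 of the 14 passed. Pde8b, a high-affinity cAMP enzyme, was at 6.26 ± 0.467 TPM at ZT20 against 1.33 ± 1.22 TPM at ZT8, a log2 difference of 1.80 (limma adjusted p = 0.0187). With a pseudocount of 0.1 it was 2.91 and did not pass (limma adjusted p = 0.0567), nor did it without a filter on low values (limma adjusted p = 0.0627). Pde3b followed with 0.98 and Pde2a with 0.74 (limma adjusted p = 0.0418 and 0.0396), and neither passed under median-ratio scaling (limma adjusted p = 0.0694 and 0.0825).

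Among 10 tested CREB factors and cofactors, 3 were higher and 1 lower, Creb1 and Crem among them (all tested genes: 12.8% higher, 3.61% lower). Crtc2, a coactivator that enters the nucleus when cAMP rises, was at 17.9 ± 3.70 TPM at ZT20 against 6.69 ± 4.25 TPM at ZT8, a log2 difference of 1.42 (limma adjusted p = 0.0270). Without a filter on low values Crtc2 did not pass (limma adjusted p = 0.0748). Crebbp, the acetyltransferase that binds phosphorylated CREB, differed by 1.19 (limma adjusted p = 0.0158). Its transcript is 10820 nt long, and the adjusted p was 0.109 after the length and GC correction. The related Ep300 differed by −0.024 without passing.

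Genes known to be induced through CREB did not share a direction. Of 25 tested, 3 were higher and 2 lower at ZT20 (20% past the threshold, near the 16.4% of all tested genes), and the median was 0.056 against 0.23. After the length and GC correction it was −0.013 and under median-ratio scaling −0.15. Sst, encoding somatostatin, was at 4.17 ± 1.73 TPM at ZT20 against 0.757 ± 0.802 TPM at ZT8, a log2 difference of 1.61 (limma adjusted p = 0.0262). With a pseudocount of 0.1 it was 2.996 and did not pass (limma adjusted p = 0.0577), nor did it without a filter on low values (limma adjusted p = 0.0850). Mcl1, an anti-apoptotic gene, was higher by 0.88, and Scg2, encoding secretogranin II, by 0.66 (limma adjusted p = 0.0178 and 0.0131). Under median-ratio scaling the adjusted p of Scg2 was 0.0624. Mcl1 did not pass under quantile normalization (0.58, limma adjusted p = 0.0652). The immediate early genes Junb and Ier2 were lower, by −0.65 and −0.55 (limma adjusted p = 0.0485 and 0.0343). Under median-ratio scaling, 2 of these 25 genes were higher and 5 lower, while 1128 of all 14800 genes were higher and 1160 lower, and after the length and GC correction neither Junb nor Ier2 passed (adjusted p = 0.113 and 0.147). Immediate early genes also respond to tissue dissociation, and its part was not tested.

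With 1 sample left out at a time, Akap6, Akap10 and Prkar2a passed in all 7 fits, Gnas and Scg2 in 6, and Ptgir, Crebbp and Mcl1 in 5. Gnao1 and Pde8b passed in 4 of 7, Rapgef4 in 3, Pde3b, Crtc2, Sst and Ier2 in 2, and Junb in 1. Crtc2, Sst, Pde3b and Rapgef4 passed without ZT8 replicate 1 and without ZT8 replicate 2, and Rapgef4 also without ZT20 replicate 2. Gnas and Scg2 lost their call without ZT20 replicate 3, Ptgir, Crebbp and Mcl1 without ZT20 replicate 3 or 4, and Gnao1 and Pde8b without ZT20 replicate 1, 3 or 4. Junb passed only without ZT8 replicate 3, and Ier2 without ZT20 replicate 4 and without ZT8 replicate 2.

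**Figure D4:**
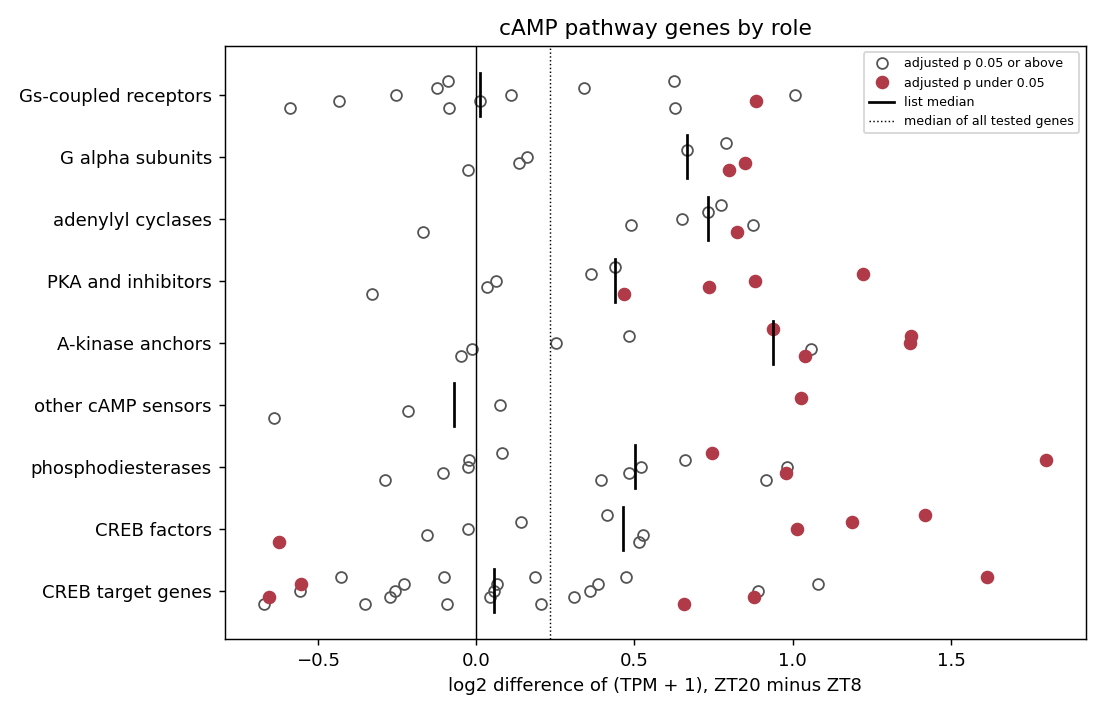
Log2 difference (ZT20 minus ZT8) of every tested pathway gene, 1 row per role, with filled circles for an adjusted p under 0.05, a bar at each list's median and a dotted line at the median of all tested genes. Anchoring proteins have the highest list median, 0.94 (0.56 after the length and GC correction), and CREB target genes spread on both sides of 0 around a median of 0.056.

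Of the wider pathway, 100 genes had an entry and 8 a full CRE, among them Prkar1a and 6 of 23 genes of the CREB target list. The windows of 40 bases around it, with the CRE in capitals, are set side by side for the 6 of these genes that were tested, because only some of them passed. Areg and Gpr6 also hold it, but they averaged under 1 TPM and were not tested. Prkar1a also has entries without a full CRE, such as chr11:109648773-109649072. Prkar1a (chr11:109650884-109650923 on the plus strand), Scg2 (chr1:79440071-79440110 on the minus strand) and Sst (chr16:23890869-23890908 on the minus strand) were higher at ZT20. Btg2 (chr1:134079298-134079337 on the minus strand), Dusp1 (chr17:26508592-26508631 on the minus strand) and Th (chr7:142900017-142900056 on the minus strand) did not pass, with log2 differences of 0.20, −0.35 and −0.26 (limma adjusted p = 0.368, 0.158 and 0.344).
Prkar1a: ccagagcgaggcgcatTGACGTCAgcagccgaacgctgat
Scg2: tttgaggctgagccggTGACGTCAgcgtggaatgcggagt
Sst: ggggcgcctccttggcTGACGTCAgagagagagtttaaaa
Btg2: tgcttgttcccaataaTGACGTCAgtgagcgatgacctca
Dusp1: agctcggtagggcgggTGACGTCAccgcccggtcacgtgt
Th: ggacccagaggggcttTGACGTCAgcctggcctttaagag
Among the 378 tested genes with a full CRE, 16.1% were higher and 4.23% lower at ZT20, with a median log2 difference of 0.21. Among the 10534 tested genes whose entries lack it, the shares were 13.0% and 3.76%, with a median of 0.23. A match of letters is a description of the window, and nothing was measured of the binding of CREB.

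The libraries in doubt were left out in turn. Without ZT20 replicates 3 and 4 the log2 differences were 0.97 for Creb1, 0.91 for Prkaca, 0.50 for Prkacb and −0.51 for Crem. With 2 samples against 3, limma called 0 of the 14800 genes (0%), while 2425 had an unadjusted p under 0.05. Without ZT20 replicates 2, 3 and 4 they were 0.97, 1.00, 0.48 and −0.46, from 1 ZT20 sample whose spread was taken to be that of ZT8. Without ZT8 replicate 2, the library with the fewest genes, they were 1.03, 0.71, 0.77 and −0.45, and 5 of the 10 genes passed, against 20.6% of all tested genes. Crem was then not among them (limma adjusted p = 0.0618). A score of neuronal minus glial markers was 3.88 to 4.28 at ZT20 and 3.41 to 3.65 at ZT8, so it followed the groups. With that score as a covariate, the differences were 1.35 for Creb1, 0.37 for Prkaca, 1.14 for Prkacb and −0.60 for Crem, and limma called 0 of 14800 genes, 1117 of them with an unadjusted p under 0.05.

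Under other settings, the number of the 10 genes that passed is given with the share of all tested genes that passed. It was 4 with a pseudocount of 0.1 (15% of all tested genes), with a minimum mean of 5 TPM (22.2%) and under quantile normalization (12.4%). It was 3 under median-ratio scaling (15.5%), after the length and GC correction (11.1%) and with no intensity trend (14.8%). It was 2 without a filter on low values (3.69%) and after the correction with each sample centred (8.84%), and 7 with array weights (26.3%). Of the ZT20 replicates, leaving out replicate 1 gave 3 genes (7.6%), replicate 2 gave 3 (12.1%), replicate 3 gave 1 (4.22%) and replicate 4 gave 2 (5.53%). Of the ZT8 replicates, leaving out replicate 1 gave 3 genes (15.5%) and replicate 3 gave 3 (11.3%).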

How the data were processed

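The authors deposited a single file of TPM, with a column for each of the 7 samples. Per the submitters' processing notes, FastQC 0.11.9, Trim Galore 0.6.6, Salmon 1.6.0, DESeq2 1.34.0 and the genome build GRCm39 were used, with no role or order given. The annotation, the strand setting and any scaling between samples are not given in the sources used here. Columns were mapped to samples by title, and 0 columns of sample values were left unused.

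The values were analysed as log2(TPM + 1). Genes that averaged 1 TPM or more across the samples were fitted with limma (version 3.58.1, R 4.3.3; lmFit and eBayes with an intensity trend, two-sided, no covariate) over ZT20 (n = 4) and ZT8 (n = 3), and called at a Benjamini-Hochberg adjusted p under 0.05. The fit was also run on simulated independent normal values, which hold none of the length trend, scaling shift or doubtful libraries described above. Intervals are 95% intervals of limma. Transcript length, GC content and overlap came from GENCODE M21 by gene identifier, with length known for 99.6% of tested genes. The length and GC correction used loess with a span of 0.3.

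All 10 genes are named, with their paralogs and, from each other list, the 2 called genes with the largest difference in each direction, and the gene with the nearest profile. Pkia, Pkib, Pkig, Akap9, Akap11, Akap12, Areg, Gpr6, Pde2a, Ep300, Scg2, Btg2, Dusp1 and Th were named after their values were seen. The genes, lists and tests were chosen with earlier results of these data known. Same-numbered samples of the 2 groups did not deviate together in all pairs, so the replicate block is an alternative only. Data were read in R by data.table (version 1.17.8). Summaries used pandas 2.3.3 under Python 3.11.15, which also drew the figures (matplotlib 3.10.9).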

Additional observations from a re-analysis of the deposited data

Results flagged for a closer look

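Within ZT20, where 4 samples allow it, a sample was picked out when its gap to the nearest other sample took a larger share of the group's range than Dixon's 95% critical value. This held for 2 of 53 quantities (the levels of 41 genes and 12 ratios, sums or shares), and chance gives about 1 in 20, or 2.65 in 53. The Creb1 level of ZT20 replicate 4 was 11.5 TPM, against 10.2 to 10.4 TPM in replicates 1 to 3, and its gap took 0.893 of the range. Without that sample the log2 difference of Creb1 was 0.98. The Pde4a level of ZT20 replicate 2 was 3.42 TPM, against 6.92 to 7.53 TPM in replicates 1, 3 and 4, and its gap took 0.852 of the range.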

How the results depend on the processing

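The length and GC correction with each sample centred was chosen after the data were seen. The cause of a change was not tested. Of the 10 genes, 4 passed as reported and 25 of the 98 pathway genes, against 16.4% of all tested genes. Without a filter on low values these counts were 2 and 12 (3.69% of all tested genes), with the marker score 0 and 0 (0% of all), and without ZT20 replicates 3 and 4, or 2, 3 and 4, also 0 and 0, with a limma fit that called no gene of all tested. The correction with centring gave 2 and 11 (8.84% of all), and array weights, which weighted ZT8 replicate 2 lowest, gave 7 of the 10 genes (26.3% of all). Leaving out 1 replicate at a time gave 1 to 5 of the 10 genes and 6 to 27 pathway genes, with the lowest counts without ZT20 replicate 3, where 4.22% of all genes passed. Creb1 passed in all 7 of these fits, Prkaca in 6, Prkacb in 4 and Crem in 1. Over all 21 alternatives these 4 genes kept their direction, and they passed in 15, 17, 10 and 7 of them, respectively.

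The replicate number occurs in both groups, and deviations of same-numbered samples correlated at −0.014, 0.15 and 0.083. Those of samples with unlike numbers correlated at −0.17 to 0.15. So few samples cannot decide whether the number pairs them. With a replicate block, under which Sst and Crtc2 did not pass (limma adjusted p = 0.0610 and 0.0716) and to which ZT20 replicate 4 adds nothing, 1 of the 10 genes (Prkaca) and 15 pathway genes passed, against 7.93% of all genes, and with the block and the length and GC correction 1 and 4 (4.33% of all).

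The sign turned for Adcy1 (−0.16) and Adcy3 (−0.13) under the correction with centring. Prkar2b turned to −0.17 under median-ratio scaling, −0.14 under the correction with centring, −0.065 without ZT20 replicates 3 and 4 and −0.53 without replicates 2, 3 and 4, and ranged from −0.051 to 0.26 when 1 replicate was left out. On the same leave-one-out range, Pde4b ran from −0.12 to 0.11 and Adcy2 from −0.34 to 0.12. Adcy2 was also positive with the marker score (0.046) and array weights (0.017). Btg2 turned to −0.024 under median-ratio scaling and Dusp1 to 0.21 with the marker score. Some called pathway genes kept their sign over all 21 alternatives but moved widely. Gnas ran from 0.068 to 0.97, Ptgir from 0.29 to 1.23 and Scg2 from 0.27 to 0.88. Junb ran from −0.89 to −0.048 and Ier2 from −0.78 to −0.18.

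Over all genes, the share of calls that were higher at ZT20 was 78.1% as reported (1899 higher, 534 lower), 49.3% under median-ratio scaling (1128 and 1160), 55.7% under quantile normalization (1023 and 814) and 40.5% under the correction with centring (528 and 776). The median difference of all genes was then 0.033, 0.0046 and −0.0083, so directions are relative to the scaling. Depth is unknown for TPM, so the counting error of low genes such as Adcy8 cannot be given.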
